A study of Mus musculus with 8 samples.

Results

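The voltage-gated sodium, calcium and potassium channels and the HCN channels were examined in the ventral midbrain of mice with and without a mutant allele of the DNA repair gene Ercc1. Members were taken by symbol: the pore-forming sodium channel genes (Scn followed by a number and a), the calcium channel genes Cacna1a to Cacna1s, the potassium channel families Kcna, Kcnb, Kcnc, Kcnd, Kcnh and Kcnq, and the Hcn genes. The deposited count table held 52 of the 54 symbols that fit this description among its 15359 genes. Kcna7 and Scn9a are not analysed here. There were 9 sodium channel genes, 10 calcium channel genes, 29 potassium channel genes and 4 HCN genes, and for each the transcript row with the highest total count was read.

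Poly(A) RNA from the ventral mesencephalic area was sequenced in 4 Ercc1 delta/+ libraries and 4 wild type libraries, all pooled in a single lane. Ercc1 delta/+ mice carry a mutant and a normal allele of Ercc1, which encodes a subunit of an endonuclease of nucleotide excision repair. Both groups had a mixed FVB:C57BL/6J background in equal parts and were given no treatment that the labels name, and regular diet was recorded. Neither age, sex nor whether each library came from its own animal is stated in the labels, and the p-values below measure the spread between libraries, and part of that spread may be technical.

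Channels of these families open or close as the membrane voltage changes, and the pore-forming subunit that each member encodes sets the ion that passes and the voltage range at which it does so. Sodium channels carry the upstroke of the action potential, potassium channels end it and set the interval to the next one, and calcium channels couple firing to transmitter release and to gene expression. Dopaminergic neurons of the midbrain fire without input, like a pacemaker; the L-type calcium channel Cav1.3, encoded by Cacna1d, opens at unusually negative voltage and takes part in that rhythm, and HCN channels, opened by hyperpolarization, contribute to it.

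RefSeq promoter windows of the assembly GRCm38.p6, each 250 bases before to 50 bases after a transcript start, are shown 5′ to 3′ for Cacna1d and for those 4 members with no overlap between the genotypes whose listed window lay at the start of the counted transcript. Capitals mark the 6 bases GGGCGG on either strand, the core of the motif bound by Sp1 and related factors. The Cacna1d window lies 495 bases from the start of the counted transcript, and the other 4 lie within 9 bases of it.
Cacna1d, chr14:30353437-30353736, minus strand: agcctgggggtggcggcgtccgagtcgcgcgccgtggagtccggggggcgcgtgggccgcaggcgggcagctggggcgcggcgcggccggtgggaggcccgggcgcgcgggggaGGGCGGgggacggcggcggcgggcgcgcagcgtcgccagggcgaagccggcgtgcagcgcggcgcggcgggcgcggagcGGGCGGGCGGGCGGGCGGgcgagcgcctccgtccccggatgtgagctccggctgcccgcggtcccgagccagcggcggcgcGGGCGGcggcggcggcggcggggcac
Scn8a, chr15:100936021-100936320, plus strand: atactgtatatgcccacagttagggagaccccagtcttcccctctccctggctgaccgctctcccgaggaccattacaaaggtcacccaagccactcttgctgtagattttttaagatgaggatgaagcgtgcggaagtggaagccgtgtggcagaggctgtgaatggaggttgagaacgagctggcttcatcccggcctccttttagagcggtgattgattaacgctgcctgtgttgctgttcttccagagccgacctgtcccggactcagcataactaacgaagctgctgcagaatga
Cacna1i, chr15:80286988-80287287, plus strand: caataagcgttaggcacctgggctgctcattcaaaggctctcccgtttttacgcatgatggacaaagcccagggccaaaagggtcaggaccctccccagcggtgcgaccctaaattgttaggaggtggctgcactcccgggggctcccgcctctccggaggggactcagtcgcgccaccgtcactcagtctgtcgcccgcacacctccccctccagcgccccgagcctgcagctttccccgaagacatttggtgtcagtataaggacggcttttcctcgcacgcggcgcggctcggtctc
Kcnh5, chr12:75177283-75177582, minus strand: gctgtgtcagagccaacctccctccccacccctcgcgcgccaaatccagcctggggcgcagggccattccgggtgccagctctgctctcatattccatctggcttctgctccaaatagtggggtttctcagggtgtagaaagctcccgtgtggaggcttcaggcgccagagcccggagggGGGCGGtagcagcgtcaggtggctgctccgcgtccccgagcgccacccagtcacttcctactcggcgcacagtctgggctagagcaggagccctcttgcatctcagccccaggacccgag
Kcnh7, chr2:63184238-63184537, minus strand: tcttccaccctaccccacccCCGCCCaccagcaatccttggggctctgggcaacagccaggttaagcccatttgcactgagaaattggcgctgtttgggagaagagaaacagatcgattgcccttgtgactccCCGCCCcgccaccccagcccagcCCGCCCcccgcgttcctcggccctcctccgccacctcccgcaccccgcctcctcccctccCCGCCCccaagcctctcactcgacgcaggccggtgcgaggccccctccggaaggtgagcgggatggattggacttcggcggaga
The Cacna1d window held 6 matches, 4 of them overlapping in a row, and had a GC content of 87.3%. Kcnh7 held 4 matches and Kcnh5 held 1, while Cacna1i and Scn8a held 0. Over the 44 windows listed for 35 of the channel genes, GGGCGG was in 50.0%, against 35.7% of all 32851 windows of the same length. The TATA box letters TATAAA were in 4.55% of the channel windows and 13.6% of all, and the cyclic AMP response element TGACGTCA was in 0 of 44 and in 1.79% of all; both strands were searched. The median GC content was 62.8% in the channel windows and 52.7% in all, and a match of letters describes the sequence only.

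Before any channel was compared, the targeted gene and the tissue were checked. Ercc1 (NM_007948) was measured, in counts scaled to library size (CPM), at 10.2, 12.9, 11.1 and 11.9 in Ercc1 delta/+ replicates 1 to 4 and at 14.0, 15.3, 14.9 and 13.8 in wild type. The groups did not overlap, with a log2 fold change of -0.34 (SE 0.10), and the adjusted p of edgeR's quasi-likelihood test with Benjamini-Hochberg adjustment was 0.113. The labels do not say which bases the delta allele lacks, so this count checks the labels only in part. Libraries held between 18303913 and 31261889 counts. All 10 markers of dopaminergic neurons were present, and their summed level ran from 294 to 550.1 CPM in Ercc1 delta/+ and from 391 to 597 CPM in wild type. Of the 10, 2 had a positive log2 fold change of Ercc1 delta/+ over wild type and 8 a negative one. In the same test 0 of them had an adjusted p under 0.05, and their part in the channel values was not tested. In tissue RNA such as this, fewer cells of a type and less RNA per cell cannot be told apart.

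No channel gene passed the test: of the 50 members that could be tested, 0 had an adjusted p under 0.05 in edgeR's quasi-likelihood test, beside 7 of 15074 genes (0.0464%). Scn4a and Kcna10 were below the filter on low counts and were not tested. Log2 fold changes, given throughout as Ercc1 delta/+ over wild type, were positive for 37 channel genes and negative for 13, with a median of 0.21 beside 0.00 for all genes tested. At an unadjusted p under 0.05, 16 of 50 (32.0%) were higher in Ercc1 delta/+, against a background of 9.08%, and 0 were lower, against 9.65%. In 9 of 50 (18.0%) every Ercc1 delta/+ library was above every wild type library, against 5.17% of all genes, and in 0 was the reverse true, against 6.88%. With an offset for the trend of counts over transcript length and GC content, 31 members were positive and 19 negative, the median was 0.07, and 7 had an unadjusted p under 0.05 and were higher, against 5.83%. Without the offset, the 9 with no overlap included Scn8a, Cacna1h, Cacna1i, Kcnh5, Kcnh7 and Kcnq3.

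Other tests of the same counts made some calls. DESeq2 gave an adjusted p under 0.05 to 7 of the 45 members that it gave one, all higher in Ercc1 delta/+, against 3.66% of all such genes higher and 3.91% lower. Among them were Cacna1h (adjusted p = 0.00306), Cacna1i (0.00568), Kcnq3 (0.0147), Cacna1e (0.0274) and Kcnh7 (0.0344). The edgeR exact test called 4 members, also higher, against a background of 1.60%, among them Cacna1h (adjusted p = 0.00809), Cacna1i (0.0165) and Kcnq3 (0.0455). In the authors' deposited table, 4 members had an adjusted p under 0.05 with a positive log2 fold change, among them Cacna1h (0.0317), Cacna1e (0.0384) and Cacna1i (0.0453). That table held 371 such rows in either direction among 19931 (1.86%). With Ercc1 delta/+ replicate 2 left out, edgeR's quasi-likelihood test called Cacna1h (adjusted p = 0.0466) and Kcnq3 (0.0484), both higher in Ercc1 delta/+. In that setting 310 of 15164 genes passed in either direction and 0.488% passed as higher. No other library left out gave a call among the channel genes. Over the 21 alternatives fitted, the adjusted p ran from 0.00306 to 0.460 for Cacna1h, from 0.00568 to 0.612 for Cacna1i and from 0.0147 to 0.473 for Kcnq3. The ranges were 0.0274 to 0.430 for Cacna1e and 0.0344 to 0.359 for Kcnh7.

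**Figure D1:**
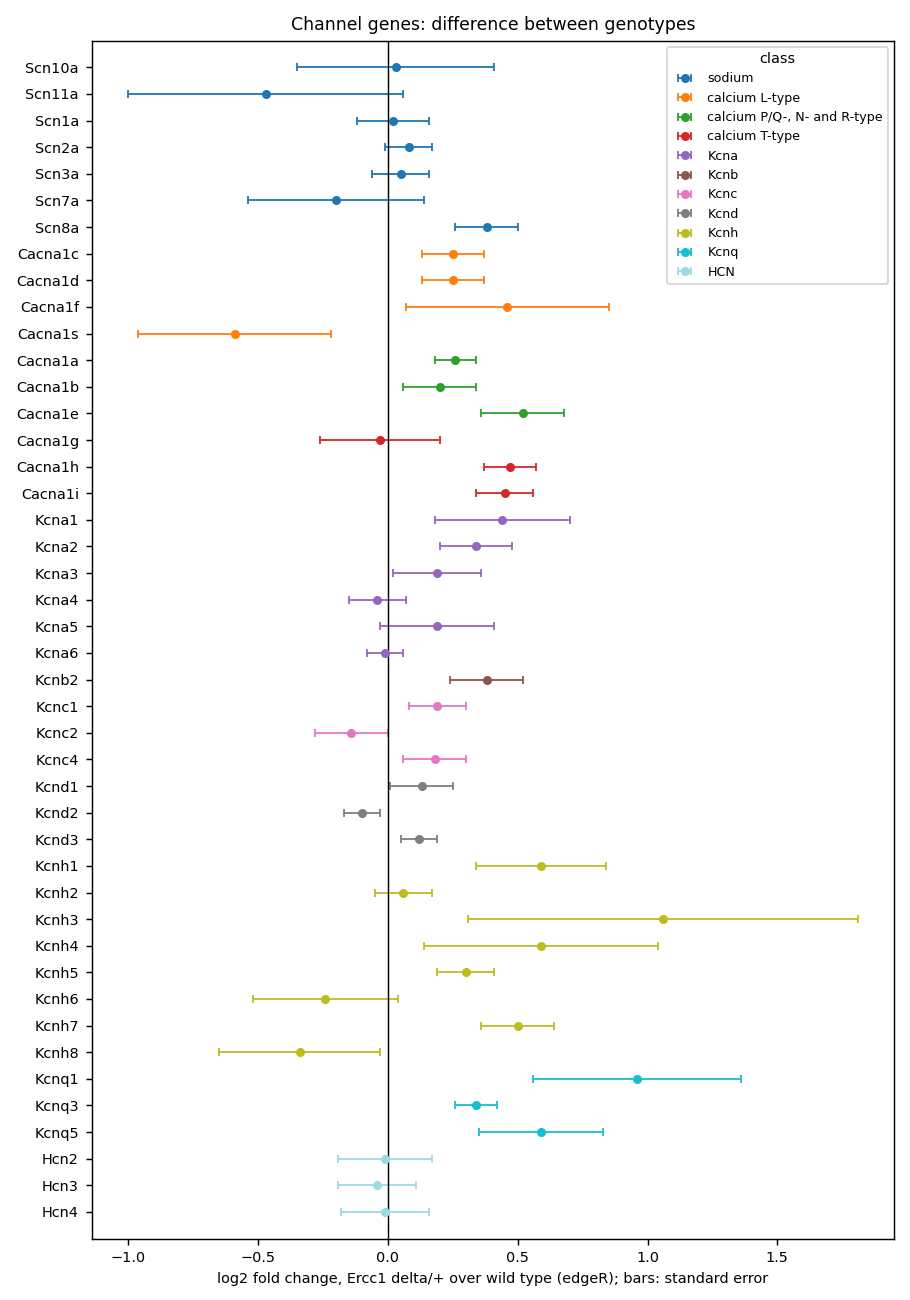
Log2 fold change of 44 of the 50 tested channel genes, Ercc1 delta/+ over wild type, by class (x axis: edgeR estimate, points; bars: 1 standard error). Most points lie to the right of 0, with 31 positive and 13 negative, and the P/Q-, N- and R-type class lies wholly to the right.

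Cacna1d (NM_001083616), the L-type pore-forming subunit tied to pacemaking, was measured at 58.3, 42.1, 56.9 and 52.8 CPM in Ercc1 delta/+ replicates 1 to 4 and at 43.1, 39.7, 41.1 and 53.0 CPM in wild type. Replicate 2 was the lowest of the Ercc1 delta/+ libraries and replicate 4 the highest of the wild type, and through them the groups overlapped. The log2 fold change was 0.25 (SE 0.12, 95% interval -0.03 to 0.52), with an adjusted p of 0.314. Cacna1c, which encodes the more widely expressed L-type channel Cav1.2, had the same estimate of 0.25 (SE 0.12, adjusted p = 0.285), with 75.4 ± 10.7 CPM in the Ercc1 delta/+ libraries (mean and SD, n = 4, as below) against 63.4 ± 6.83 CPM. Per kilobase of transcript, the scale on which genes are compared here, Cacna1c stood at 8.31 ± 0.895 CPM per kb and Cacna1d at 6.87 ± 0.931 in wild type, and together they made up 52.9% and 43.8% of the L-type sum. The retinal gene Cacna1f and the skeletal muscle gene Cacna1s stayed below 1 CPM per kb in both groups, and their estimates of 0.46 (SE 0.39) and -0.59 (SE 0.37) rest on few counts.

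Hcn2 (NM_008226), the most abundant of the HCN genes, was measured at 242, 339.8, 221 and 250.1 CPM in Ercc1 delta/+ and at 297, 269, 311 and 181 CPM in wild type. The groups covered nearly the same range, and the estimate was -0.01 (SE 0.18, 95% interval -0.42 to 0.41). Hcn3 had an estimate of -0.04 (95% interval -0.37 to 0.29), from 38.0 ± 5.46 and 39.0 ± 7.06 CPM. Hcn4, the slowly opening subunit of the sinus node of the heart, had an estimate of -0.01 (95% interval -0.39 to 0.37), from 26.2 ± 5.13 and 26.4 ± 4.97 CPM. For these 3 genes, differences in either direction that lie within the intervals cannot be told from 0 at this spread. Per kilobase, Hcn2 made up 83.1% of the HCN sum in wild type and Hcn3 9.78%, and the sum was 100.1 ± 16.0 CPM per kb in Ercc1 delta/+ and 99.5 ± 17.9 in wild type.

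**Figure D2:**
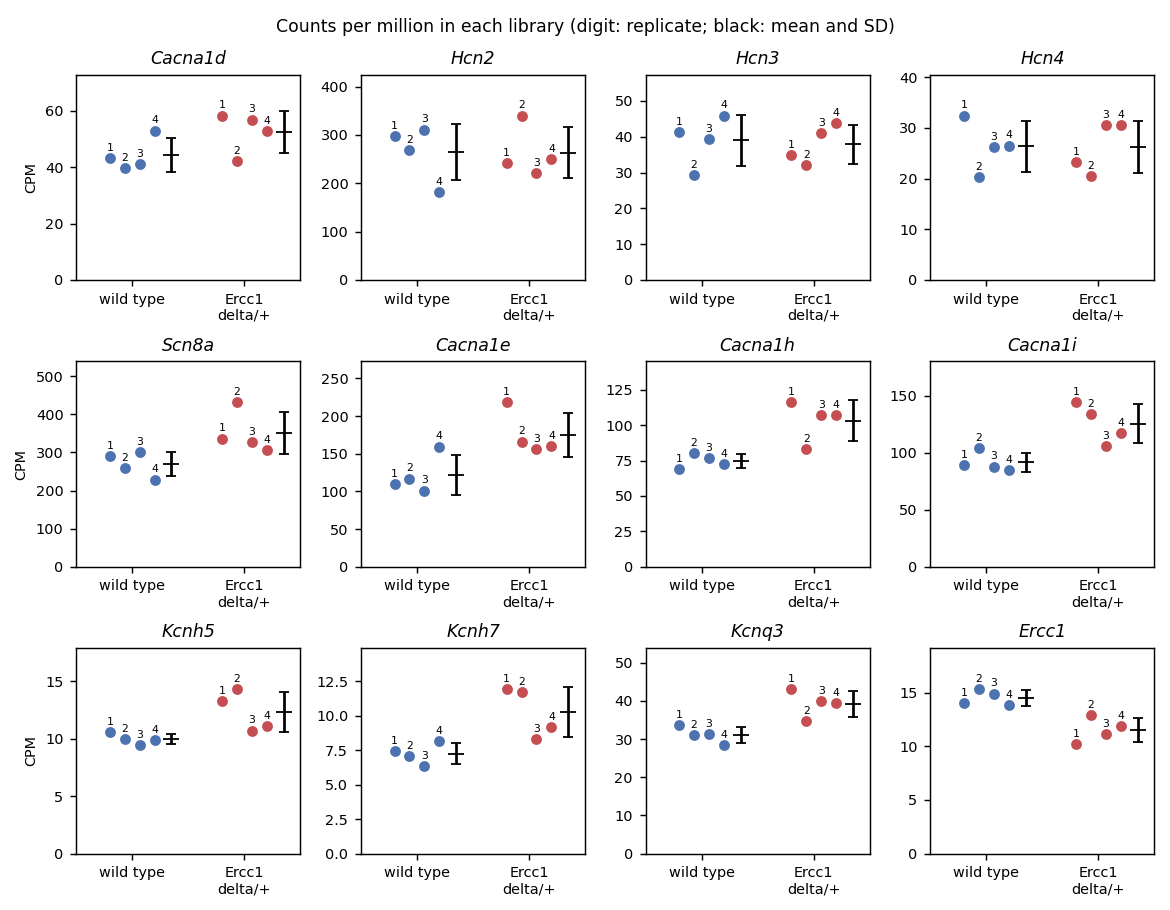
Normalised expression in each library for Cacna1d, 3 HCN genes, 7 channel genes that DESeq2 called or whose groups did not overlap, and Ercc1 (y axis: CPM; digits: replicate; black: mean and SD of 4 libraries). Hcn2, Hcn3 and Hcn4 cover like ranges in both genotypes, whereas Cacna1h has its lowest Ercc1 delta/+ library at 83.0 and its highest wild type library at 80.5.

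Among the 8 sodium channel genes tested, Scn8a alone (12.5%, against 9.08% of all genes higher) had an unadjusted p under 0.05 (0.0132). It encodes Nav1.6, the channel of mature axon initial segments and nodes of Ranvier. Its level was 336, 431, 328 and 307 CPM in Ercc1 delta/+ and 289.8, 258, 301 and 229 CPM in wild type. The groups did not overlap, though Ercc1 delta/+ replicate 4 and wild type replicate 3 were close. The log2 fold change was 0.38 (SE 0.12), with an adjusted p of 0.156. The other neuronal sodium channel genes had values near 0: Scn2a 0.08 (95% interval -0.13 to 0.29), Scn3a 0.05 (-0.20 to 0.29) and Scn1a 0.02 (-0.29 to 0.33). Per kilobase in wild type, Scn2a at 33.9 ± 3.85 and Scn1a at 33.2 ± 4.73 CPM per kb could not be ordered, and Scn8a stood at 24.0 ± 2.92.

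Scn7a, Scn10a and Scn11a, genes of glia and peripheral sensory neurons, had estimates of -0.20 (SE 0.34), 0.03 (SE 0.38) and -0.47 (SE 0.53), and all 3 were lowest in Ercc1 delta/+ replicate 2. Scn10a and Scn11a rest on few counts, with wild type means of 1.14 and 0.787 CPM. In Ercc1 delta/+ replicate 2 Scn11a was at 0.113 CPM, where 3 counts equal 0.164 CPM. Scn7a was at 9.47, 4.24, 11.6 and 10.1 CPM in Ercc1 delta/+ and at 10.4, 8.85, 5.93 and 15.7 CPM in wild type, so the groups overlapped widely. The summed hypothalamic neuron markers were also lowest in that library, at 47.3 CPM. They ran from 235 to 420.4 CPM in the rest of its genotype and from 303 to 720.1 CPM in wild type. Of the 8 hypothalamic markers tested, 0 had positive estimates. The part of these markers in the sodium channel values was not tested.

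The presynaptic calcium channel genes all had positive estimates. Cacna1e (NM_009782), which encodes the R-type channel Cav2.3, was measured at 218, 166, 156 and 159.9 CPM in Ercc1 delta/+ and at 109.7, 117, 101 and 159.6 CPM in wild type. Wild type replicate 4 lay among the Ercc1 delta/+ libraries, and the other 3 wild type libraries were below all of them. The log2 fold change was 0.52 (SE 0.16, adjusted p = 0.132). Cacna1a, the P/Q-type gene on which fast transmitter release depends most, had an estimate of 0.26 (SE 0.08, adjusted p = 0.149), from 160.0 ± 13.8 and 133 ± 10.9 CPM. Cacna1b, the N-type gene, had 0.20 (SE 0.14, adjusted p = 0.450). Their summed level per kilobase was 43.7 ± 2.80 in Ercc1 delta/+ and 35.3 ± 3.60 CPM per kb in wild type. The groups did not overlap, but the nearest libraries were at 40.4 and 40.0. With the length and GC offset the median of the 3 log2 fold changes was 0.04.

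T-type channels open near the resting potential and support burst firing, and the estimates of their 3 genes were unlike. Cacna1h (NM_021415), encoding Cav3.2, was measured at 116, 83.0, 107 and 107 CPM in Ercc1 delta/+ and at 68.7, 80.5, 76.9 and 72.6 CPM in wild type. Cacna1i (NM_001044308), encoding Cav3.3, was at 144, 134, 106 and 117 CPM against 89.3, 104, 87.9 and 84.9 CPM. In neither gene did the groups overlap, although for both the nearest libraries differed by under 3 CPM. The log2 fold changes were 0.47 (SE 0.10, adjusted p = 0.0765) for Cacna1h and 0.45 (SE 0.11, adjusted p = 0.0900) for Cacna1i. Cacna1g, encoding Cav3.1 and the most abundant of the 3 per kilobase with 60.7% of the sum, was at 189, 156, 311 and 249.9 CPM in Ercc1 delta/+ and at 269, 155, 229 and 275 CPM in wild type. Its values spread widely in both groups, and the estimate was -0.03 (SE 0.23, 95% interval -0.56 to 0.49), an interval that includes the estimates of Cacna1h and Cacna1i; whether the 3 genes differed in response was not tested.

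Of the potassium channel genes, 22 of the 28 tested had positive estimates, and 10 (35.7%) had an unadjusted p under 0.05, all of them higher in Ercc1 delta/+, against 9.08% of all genes. The median was 0.31. With the length and GC offset, 20 of the 28 were positive, 5 had an unadjusted p under 0.05 and were higher, against 5.83%, and the median was 0.20.

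The Kcnq genes encode the M-type channels that hold neurons back from repeated firing, and all 5 had positive estimates. At an unadjusted p under 0.05, 4 of the 5 (80.0%) were higher, against 9.08% of all genes. With the length and GC offset 1 of the 5 was, against 5.83%, and the median went from 0.48 to 0.35. Kcnq3 was measured at 43.0, 34.6, 39.9 and 39.3 CPM in Ercc1 delta/+ and at 33.7, 31.0, 31.2 and 28.4 CPM in wild type. All Ercc1 delta/+ libraries lay above all wild type libraries, by under 1 CPM at the nearest, and the log2 estimate was 0.34 (SE 0.08, adjusted p = 0.0921). Kcnq5 was at 68.6, 52.5, 33.5 and 37.3 CPM against 26.6, 44.3, 27.4 and 29.6 CPM, an estimate of 0.59 (SE 0.24, adjusted p = 0.241). Kcnq1, the heart gene, was below 2 CPM in every library, with an estimate of 0.96 (SE 0.40).

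The Kcnh family holds the ether-à-go-go channels and their relatives. Kcnh7, which encodes an erg channel, was at 11.9, 11.7, 8.31 and 9.18 CPM in Ercc1 delta/+ and at 7.44, 7.07, 6.33 and 8.15 CPM in wild type, for an estimate of 0.50 on the log2 scale (SE 0.14, adjusted p = 0.118). Its groups did not overlap by a narrow margin. Kcnh5 had 0.30 (SE 0.11, adjusted p = 0.196), from 12.3 ± 1.70 and 9.98 ± 0.468 CPM, also with no overlap. Kcnh1 had 0.59 (SE 0.25, adjusted p = 0.255), and in wild type its replicate 2 at 58.0 CPM stood above the other 3 at 32.2 to 33.4. Kcnh2, the erg gene with 56.1% of the family's sum per kilobase, had 0.06 (95% interval -0.18 to 0.30).

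The largest estimate of any channel gene was that of Kcnh3, named here after its values were seen, at 1.06 with a standard error of 0.75 and an adjusted p of 0.479. It was measured at 119, 55.4, 31.0 and 57.4 CPM in Ercc1 delta/+ and at 8.94, 84.8, 26.8 and 6.42 CPM in wild type. Kcnh3 encodes a channel of the forebrain, and its spread within groups was above that of 99.7% of the genes tested. The summed level of 12 markers of cortical, hippocampal and striatal neurons was 694, 281, 304 and 390.5 CPM in Ercc1 delta/+ and 164, 734, 285 and 171 CPM in wild type, and 11 of the 12 had positive estimates. Kcnh3 was highest in Ercc1 delta/+ replicate 1 and wild type replicate 2, which also held the highest marker sums. With both of these libraries left out, an alternative added after the data were seen, 11 channel genes had an unadjusted p under 0.05 and were higher in Ercc1 delta/+, against a background of 7.61%, and the median of the channel genes was 0.15. Kcnh3 was among the 11, with 55.4, 31.0 and 57.4 CPM in the Ercc1 delta/+ libraries kept and 8.94, 26.8 and 6.42 CPM in wild type. Marker sums in the libraries kept were 281, 304 and 390.5 CPM against 164, 285 and 171 CPM, so the reduced comparison did not even them out. The part of the markers in the channel values was not tested.

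Of the members shown above, that reduced comparison gave log2 fold changes of 0.45 for Cacna1h, 0.44 for Cacna1i, 0.29 for Kcnq3 and 0.38 for Scn8a. Cacna1e had 0.38 there and Cacna1d 0.15. Thalamic markers summed to between 627 and 1171 CPM in Ercc1 delta/+ and between 830.4 and 1537 CPM in wild type, with 0 of 6 positive. Choroid plexus markers had positive estimates in 8 of 8, with sums from 77.2 to 1153 CPM in Ercc1 delta/+ and from 63.5 to 155 CPM in wild type. The part of these in the channel values was not tested.

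The Kcna family, Shaker-type channels of axons, had 1 gene of 6 (16.7%) with an unadjusted p under 0.05, against 9.08% of all genes higher. With the length and GC offset it had 0. Kcna2 was at 68.1, 97.5, 71.5 and 69.4 CPM in Ercc1 delta/+ and at 65.6, 52.6, 69.9 and 54.7 CPM in wild type, for an estimate of 0.34 (SE 0.14, adjusted p = 0.234). Kcna1, which joins Kcna2 in channels beside the node, had 0.44 (SE 0.26, adjusted p = 0.384). In both genes Ercc1 delta/+ replicate 2 was the highest library. Kcna6 was among the least variable channel genes, at 180.5 ± 8.09 and 182 ± 10.5 CPM, with an estimate of -0.01 (95% interval -0.16 to 0.14).

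The Kcnc genes, which encode the Kv3 channels of fast-firing neurons, had no member with an unadjusted p under 0.05. Kcnc1 had 0.19 (SE 0.11), Kcnc4 0.18 (SE 0.12) and Kcnc2 -0.14 (SE 0.14). The Kcnd genes encode the Kv4 channels of the A-type current, which delays firing. They were close between genotypes, with 0.13 for Kcnd1, 0.12 for Kcnd3 and -0.10 for Kcnd2 (95% interval -0.26 to 0.05).

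**Figure D3:**
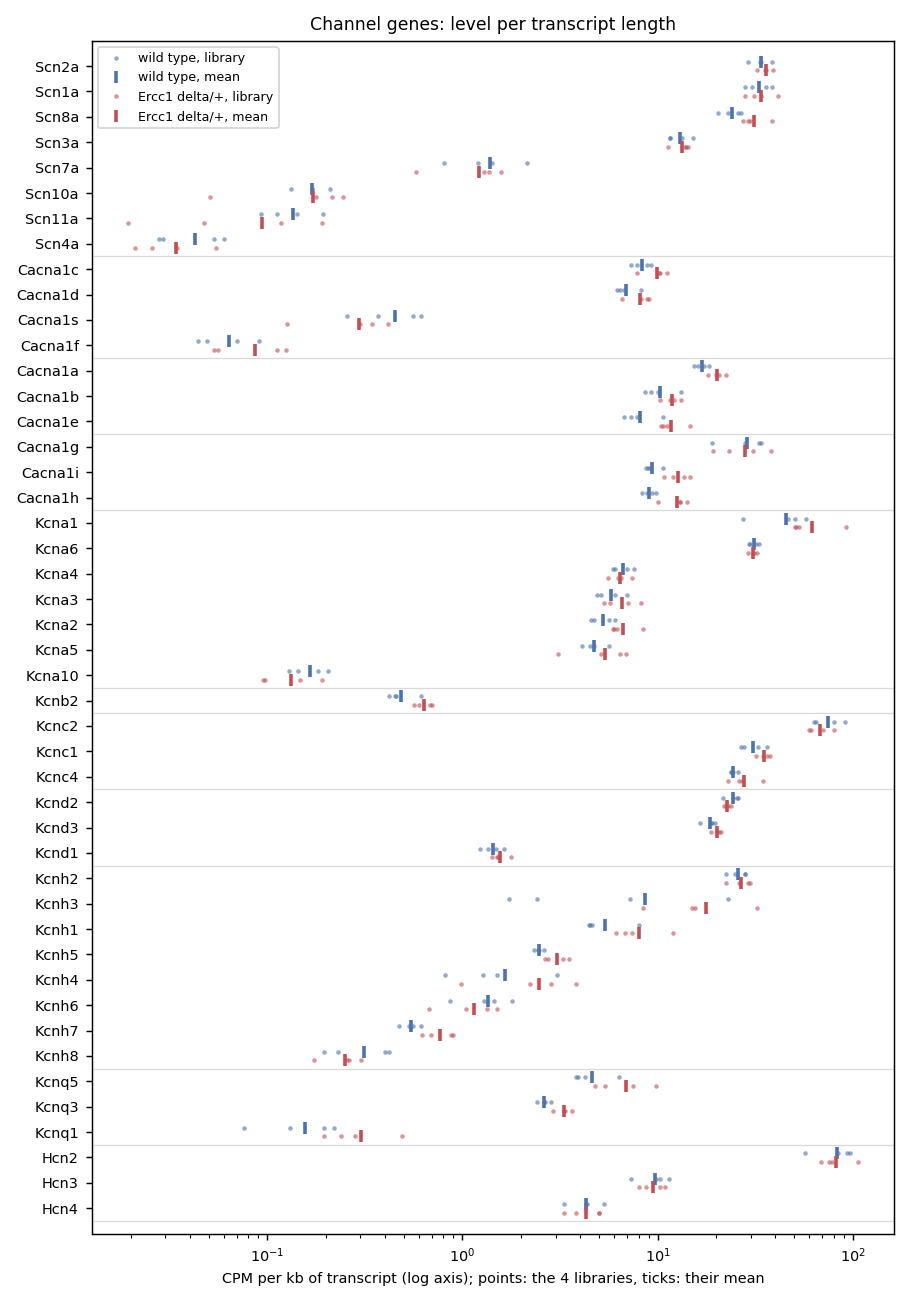
Level of 46 of the 52 channel genes per kilobase of transcript, ordered within each class by the wild type mean (x axis: CPM per kb, log axis; points: libraries; ticks: means of 4). Hcn2 and Kcnc2 lead with wild type means of 82.7 and 74.9, and Scn4a, Cacna1f and the other low members lie orders of magnitude below.

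On the scale of level per kilobase in wild type, the highest members included Hcn2 at 82.7 ± 18.3, Kcnc2 at 74.9 ± 13.6 and Kcna1 at 45.6 ± 12.7 CPM per kb. Hcn2 and Kcnc2 did not differ beyond their spread. In several classes a single member made up much of the sum: Hcn2 83.1%, Cacna1g 60.7%, Kcnh2 56.1%, Kcnd2 55.0% and Cacna1a 47.7%. The order within a class depends on the division by length in the Kcnc and Kcnd families, where Kcnc1 and Kcnd3 were the highest by counts alone. Class sums per kilobase, without the offset, were above wild type in all 4 Ercc1 delta/+ libraries for the sodium class and the P/Q-, N- and R-type class, among others. The margins were narrow, with the nearest libraries at 114 and 113 for sodium and at 40.4 and 40.0 for the P/Q-, N- and R-type class. With the length and GC offset, 2 sodium channel genes were positive and 6 negative, with a median of -0.02. The median of the P/Q-, N- and R-type class was then 0.04. The sodium sum was 119 ± 4.99 against 109 ± 4.33 CPM per kb.

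Libraries contributed unequally to the pattern. Among the 50 tested members, Ercc1 delta/+ replicate 1 was the highest of the 8 libraries for 19 and replicate 2 for 13, whereas replicates 3 and 4 were highest for 5 and 1. Ercc1 delta/+ replicate 2 was also the lowest library for 10 members. The lowest value lay in a wild type library for 8, 9, 8 and 11 members in replicates 1 to 4. The median deviation of the channel genes from their mean over libraries, on the log2 scale, was 0.15, -0.02, 0.10 and 0.09 in Ercc1 delta/+ and -0.04, -0.13, -0.12 and -0.09 in wild type. Thus 3 Ercc1 delta/+ libraries lay above 0 and replicate 2 did not, while all 4 wild type libraries lay below.

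**Figure D4:**
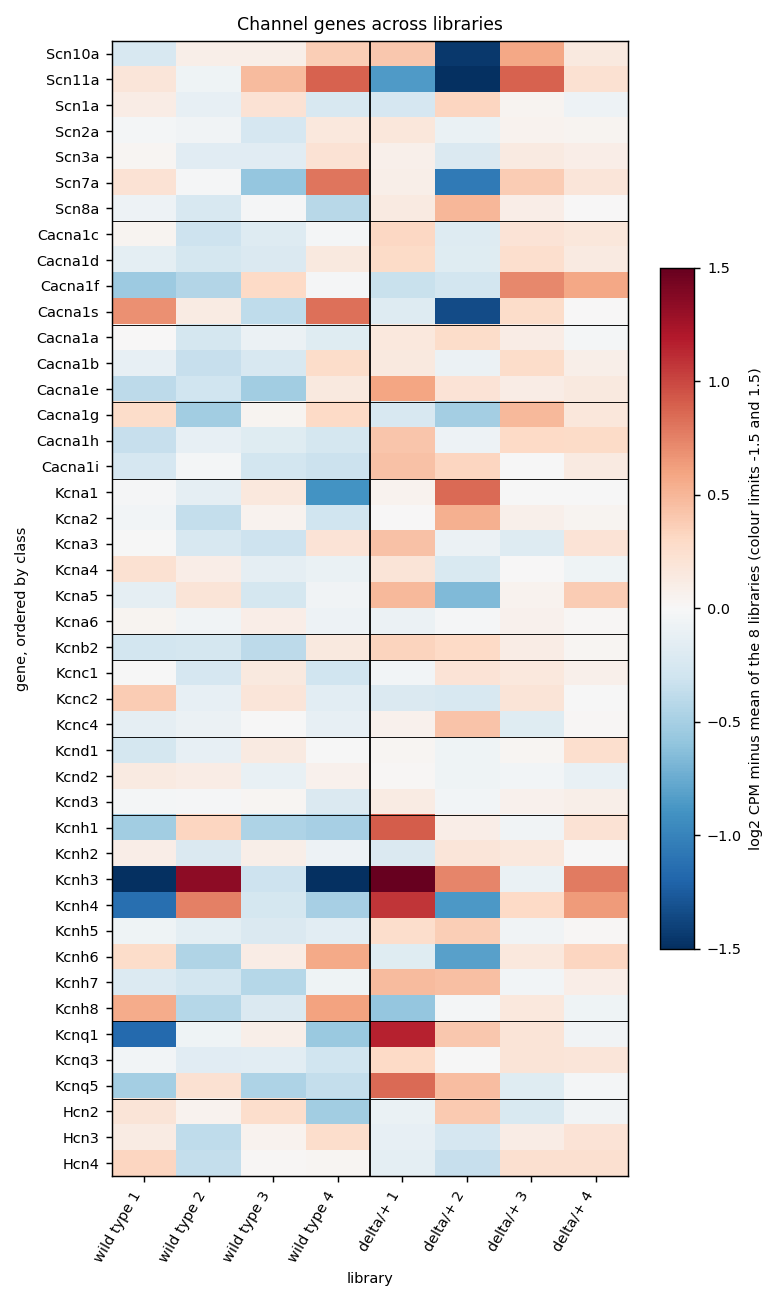
Deviation of 44 of the 50 tested channel genes from the mean over the 8 libraries (colour: log2 CPM difference, limited to -1.5 and 1.5; columns: libraries; rows: genes by class). Ercc1 delta/+ replicate 2 shows both high rows (Kcna1, Kcna2) and low ones (Scn7a, Cacna1s), and the median deviation over all 50 runs from -0.13 to 0.15.

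Channel transcripts are long, and in these data the difference between genotypes moved with transcript length. All 52 members together had a median length of 6343 bases, from 1902 to 14921, against 2984 for all genes. Among all genes with a length, the longest 10% (above 6404 bases) had a median log2 fold change of 0.14. The 25 channel genes in that range had a median of 0.26, and the 25 outside it had 0.13. With an offset fitted to the trend of counts over length and GC content in each library, the channel median was 0.07, with 31 members positive and 19 negative. Then 7 had an unadjusted p under 0.05 and were higher, against a background of 5.83%, and 0 were lower, against 4.81%, and the smallest adjusted p was 0.359. In 39 of 50 members the estimate became smaller in size, as it did in 9314 of 14739 genes in all.

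Among the 7 were Cacna1e (0.31), Cacna1h (0.22), Kcnb2 (0.31), Kcnh5 (0.27) and Kcnh7 (0.43), with log2 fold changes under the offset in parentheses. Groups did not overlap in 4 of the 50 members under the offset, all higher, against 3.14% of all genes, among them Kcnb2, Kcnh5 and Kcnh7. Cacna1d had 0.14. Scn8a went from 0.38 to 0.17, Cacna1i from 0.45 to 0.18, Kcnq3 from 0.34 to 0.20 and Cacna1a from 0.26 to 0.04. The cause of the trend over length was not tested.

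**Figure D5:**
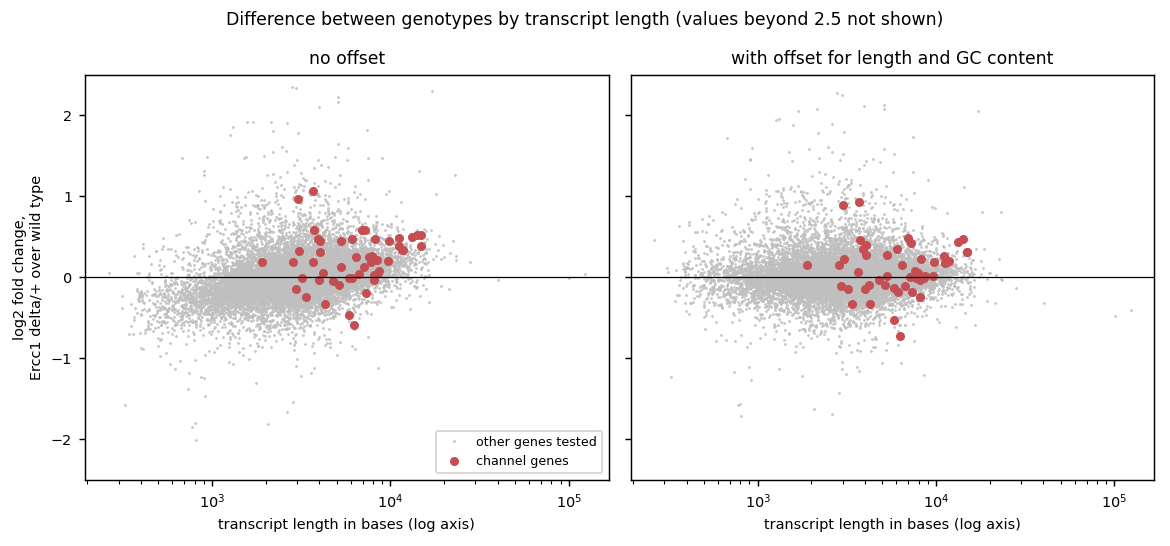
Log2 fold change of each gene against the length of its transcript (x axis: bases, log axis; y axis: Ercc1 delta/+ over wild type), as counted on the left and with the offset for length and GC content on the right. The grey cloud climbs with length on the left, and the red channel genes go from a median of 0.21 to one of 0.07.

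Genes of channel partners, of scaffolds and of other potassium and leak channels were read from lists, and 94 were in the table. Of these, 32 were other potassium and leak channels, which were not listed as binding the members. Of the 93 tested, 64 had positive estimates, 0 passed edgeR's quasi-likelihood test after adjustment, and at an unadjusted p under 0.05 there were 16 higher (17.2%, against 9.08% of all genes) and 3 lower (against 9.65%). The edgeR exact test called Kcnj13 as higher, against 1.60% of all genes, and Kcnip4 as lower. The count of all genes that this test called in either direction is given below, with the dependence on processing. Of 91 given an adjusted p, DESeq2 called 5 as higher and 1 as lower, against 3.66% and 3.91% of all genes. With the length and GC offset, 53 of the 93 were positive, and 10 were higher and 5 lower at an unadjusted p under 0.05, against 5.83% and 4.81%. Of the scaffolds of the axon initial segment and node, 13 of 14 were positive, 4 (28.6%, against 9.08%) had an unadjusted p under 0.05 and were higher, and the median was 0.17. With the offset, 8 of the 14 were positive and 6 negative, 1 had an unadjusted p under 0.05, and the median was 0.05. Sptbn4, the spectrin that anchors sodium and Kcnq channels at the initial segment, was at 286, 262, 299.6 and 281 CPM in Ercc1 delta/+ and at 237, 217, 251 and 223 CPM in wild type. The groups did not overlap, as in 4 of the 93 listed genes (4.30%), all higher, against 5.17% of all genes. In 0 of the 93 was the reverse true, against 6.88%. The log2 fold change of Sptbn4 was 0.28 (SE 0.07, adjusted p = 0.0921), but under the length and GC offset it was -0.01. Ank2 had 0.23 (SE 0.06, adjusted p = 0.110) and 0.18 under the offset, and Ank3, which encodes ankyrin-G, had 0.20 (SE 0.07) and 0.04.

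Of the auxiliary subunits, the sodium channel partners had a median of 0.05 in 8 genes, with Fgf11 at 0.52 (SE 0.17, adjusted p = 0.150). The genes listed as calcium channel partners, which take in the Cacng family, had a median of 0.05 in 14. Whether each listed product binds a calcium channel was not tested. In this list Cacng8 had 0.50 (SE 0.16) and the beta subunit Cacnb1 0.35 (SE 0.14). Kcnip4, which encodes a calcium sensor of Kv4 channels, went the other way at 66.8, 69.0, 84.2 and 75.3 CPM in Ercc1 delta/+ and 104, 83.8, 95.8 and 93.6 CPM in wild type. Only Ercc1 delta/+ replicate 3 reached wild type replicate 2, and the log2 fold change was -0.35 (SE 0.09, adjusted p = 0.100). Under the length and GC offset the log2 fold change of Kcnip4 was -0.19. The silent subunits Kcng1 and Kcng3 had 1.11 (SE 0.35) and 1.20 (SE 0.40) at low levels.

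The HCN partners had positive estimates in 4 of 4, and in 3 of 4 under the offset, with Pex5l, the gene of the TRIP8b subunit that steers HCN trafficking, at 0.06 (95% interval -0.33 to 0.44). Kcne2, which can join HCN and Kcnq channels, had 1.92 (SE 0.74), and the inward rectifier Kcnj13 had 1.76 (SE 0.37, adjusted p = 0.0677). Kcnj13 is one of the choroid plexus markers above, and Kcne2 is expressed there too; both were highest in Ercc1 delta/+ replicate 3, the library with the highest sum of those markers, at 1153 CPM. Among other channels that bear on pacemaking, Kcnj6, the GIRK2 gene of dopaminergic neurons, had 0.36 (SE 0.13, adjusted p = 0.202). The small-conductance channel genes Kcnn2 and Kcnn3 had 0.36 (SE 0.14) and 0.16 (SE 0.16), and the sodium leak channel gene Nalcn had -0.04 (95% interval -0.25 to 0.17).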

How the data were processed

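The authors deposited raw counts for 19931 coding RefSeq transcripts in 8 libraries, with their own log2 fold changes, p-values and adjusted p-values. Per the submitters' processing notes, TopHat 1.3.1, edgeR and the mm9 build were used; the counting step, with its handling of strand and of reads that fit several places, is not stated there, which makes genes with overlapping, antisense or near-identical neighbours uncertain. The lowest row total was 31 counts. Symbols were matched for 19456 rows through RefSeq and GENCODE tables, whose builds differ from mm9; 475 rows kept their identifier, 152 genes with identical counts were merged (0 channel genes), and the row of highest total stood for each gene.

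Depth ran from 18303913 to 31261889 counts per library, where 3 counts equal 0.164 to 0.0960 CPM, counting error only. Counts were tested with edgeR 4.0.16 in R 4.3.3 (quasi-likelihood, TMM, filterByExpr, two-sided, Benjamini-Hochberg over all 15074 genes kept, threshold 0.05). Intervals are 95%. Levels are TMM-scaled CPM, divided by annotated transcript length where genes are compared. No pair of libraries within a group was alike within sampling noise (lowest chi-square over degrees of freedom 12.0). Tested on simulated data for this comparison over 15074 genes, it found 85 of 100 changes of 2-fold and 55 of 100 of 1.5-fold, and 7.28% of its calls were false. The changes were placed only in genes above a low level, and libraries were drawn independently. No trend over length and no difference in tissue content was simulated. These shares may therefore not hold for smaller changes, for low members or for these libraries.

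Members, partner lists, markers and tests were chosen with earlier results of these data known. Genes were named by this rule: Ercc1, Cacna1d and the HCN genes; per class up to 3 members of smallest p and the most abundant per kilobase; up to 3 genes of smallest p per partner list; other members for their levels. Further members and partners were added after their values were seen: Scn1a, Scn3a, Scn7a, Scn10a, Cacna1f, Kcna6, Kcnh3, Kcnq1, Pex5l, Nalcn and Kcnn3. Some members enter the counts but are not reported here by name. Alternatives included RLE and upper-quartile scaling, other filters, DESeq2 1.42.0, the edgeR exact test, limma-voom (limma 3.58.1), the replicate number as a block, robust=TRUE, a length and GC offset (lowess, span 0.3, fitted on genes of mean log2 CPM above 2), a depth term, every transcript as its own row and leaving out each library.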

Additional observations from a re-analysis of the deposited data

Results flagged for a closer look

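In 7 of the 100 groups of 4 libraries examined, 1 library lay far from the other 3 by Dixon's 95% limit; chance gives about 1 in 20. Among these, Kcna1 was at 373 CPM in Ercc1 delta/+ replicate 2 (the others 205 to 214) and Kcna2 at 97.5 in the same library (68.1 to 71.5). Cacna1e was at 218 CPM in Ercc1 delta/+ replicate 1 (156 to 166), and Kcnh1 at 58.0 CPM in wild type replicate 2 (32.2 to 33.4).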

How the results depend on the processing

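The absence of a channel call depended on the tool: 0 members passed edgeR's quasi-likelihood test, 4 the edgeR exact test and 7 DESeq2, and leaving out each library gave 0 to 2. Over all genes, 7 passed in the chosen test, 33 with RLE scaling, 77 with upper-quartile scaling, 50 with the stricter filter, 556 with the exact test, 1052 with DESeq2, 52 with limma-voom, 1 with the length and GC offset, 1 with the depth term, 4 with every transcript as its own row, 0 with both libraries of highest cortical marker sum left out (added after the data were seen) and 0 to 310 with each library left out, the highest without Ercc1 delta/+ replicate 2. The cause of these moves was not tested. The 16 higher members at an unadjusted p under 0.05 became 7 with the length and GC offset, the 9 without overlap became 4, and the median of 0.21 became 0.07; leaving out each library moved that median between 0.19 and 0.27. Lower members numbered 0 to 1, both at an unadjusted p under 0.05 and without overlap, the 1 being Kcnd2 without wild type replicate 3. Among the partner, scaffold and other channel lists, genes past the threshold went from 0 to 2 with the exact test and 6 with DESeq2. In 2 classes another member was highest without division by length.

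With the replicate number as a replicate block, 0 genes passed and Hcn2 turned to 0.01. Same-numbered libraries deviated together at correlations of -0.268, 0.167, -0.123 and 0.260, so the numbers were not read as pairs.

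Of 1153 alternative values for 55 named genes, 28 in 11 genes had the opposite sign, 22 passed the threshold where the chosen test did not, and 1103 did neither. Hcn2 turned to 0.01 with limma-voom and 0.04 without both cortical-marker libraries, and ran from -0.15 to 0.08 with each library left out. With the depth term Hcn3 was 0.14, Hcn4 0.20, Scn11a 0.02, Cacna1g 0.31 and Kcnc2 0.01. Leaving out each library gave -0.15 to 0.05 for Hcn3, -0.11 to 0.11 for Hcn4, -0.23 to 0.11 for Cacna1g and -0.01 to 0.13 for Kcnh2. With the length and GC offset Kcnc1 was -0.02, Kcnh2 -0.09, Fgf12 0.16, Flna -0.05 and Sptbn4 -0.01. With 4 libraries a group and the spread seen here, differences of the size of Hcn2's interval, -0.42 to 0.41, could not be told from 0; Scn4a and Kcna10 were too low to test.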
